A study of Mus musculus with 6 samples.

Results

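The genes described here are 10 glucocorticoid-related genes of the mouse liver: Nr3c1, Hsd11b1, Zbtb16, Fkbp5, Tsc22d3, Klf9, Sgk1, Errfi1, Mt1 and Mt2. They were taken by symbol from a raw read count table of 23412 genes. All 10 had a row and all 10 passed the filter on low counts, which left 12626 genes to test. Livers came from C57BL/6J mice, an inbred laboratory strain, at an age labelled as 8 weeks. Both groups had eaten a high-fat diet for 4 weeks. One group of 3 libraries then received liraglutide (Lira, 300 µg per kg body weight under the skin for 3 days), and the other group of 3 libraries received phosphate-buffered saline (PBS, titled as 3 days). Liraglutide is a long-acting drug that mimics the incretin hormone GLP-1, which promotes insulin secretion and reduces appetite. Whole liver was used, so fewer cells of a type and less RNA per cell cannot be told apart. No pair-fed group is part of the comparison, and effects of eating less and direct effects of the drug cannot be told apart.

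Glucocorticoids, corticosterone in the mouse, enter cells freely and bind the glucocorticoid receptor, which moves to the nucleus and binds DNA at glucocorticoid response elements. In the liver the hormone is known for raising gluconeogenesis and amino acid breakdown during fasting and stress. Hydroxysteroid dehydrogenase 1 remakes the active hormone inside hepatocytes, Fkbp5 restrains the receptor in a feedback loop, and the metallothioneins are induced by the hormone and, through a separate factor, by zinc.

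Zbtb16 was 9.45-fold higher after liraglutide and was the only one of the 10 genes to pass the test. The metallothionein genes Mt1 and Mt2 stood lower in every liraglutide library than in every PBS library, at folds of 0.421 and 0.248 of PBS, but neither passed. Fkbp5, Tsc22d3 and Klf9, whose products are widely used readouts of receptor activity, overlapped between the groups. With edgeR's quasi-likelihood test and Benjamini-Hochberg adjustment over all tested genes, at an adjusted p below 0.05, 1 of the 10 genes was higher and 0 were lower. Of all tested genes 8.77% were called, 4.08% higher and 4.69% lower, so the share among the 10 was near that of all genes. Higher genes made up 46.5% of all calls, and 57.2% with library totals in place of TMM scaling. Leaving out Lira161, Lira162 or Lira164 gave 0, 0 and 1 higher of the 10, and leaving out PBS155, PBS157 or PBS158 gave 2, 0 and 1. Without Lira164, 3 were lower, and 0 without any other single library. At an unadjusted p below 0.05, 3 were higher (Zbtb16, Sgk1 and Errfi1) and 3 lower (Nr3c1, Mt1 and Mt2), against 12.5% and 13.1% of all tested genes. The Wald test of DESeq2 called 2 higher (Zbtb16 and Sgk1) and 2 lower (Mt1 and Mt2), where it called 12.2% of all genes with an adjusted p. Limma-voom called 1 higher (Zbtb16) and 1 lower (Mt2), where it called 8.85% of all tested genes. The median log2 fold change of the 10 genes was -0.02, against 0.01 over all tested genes.

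**Figure D1:**
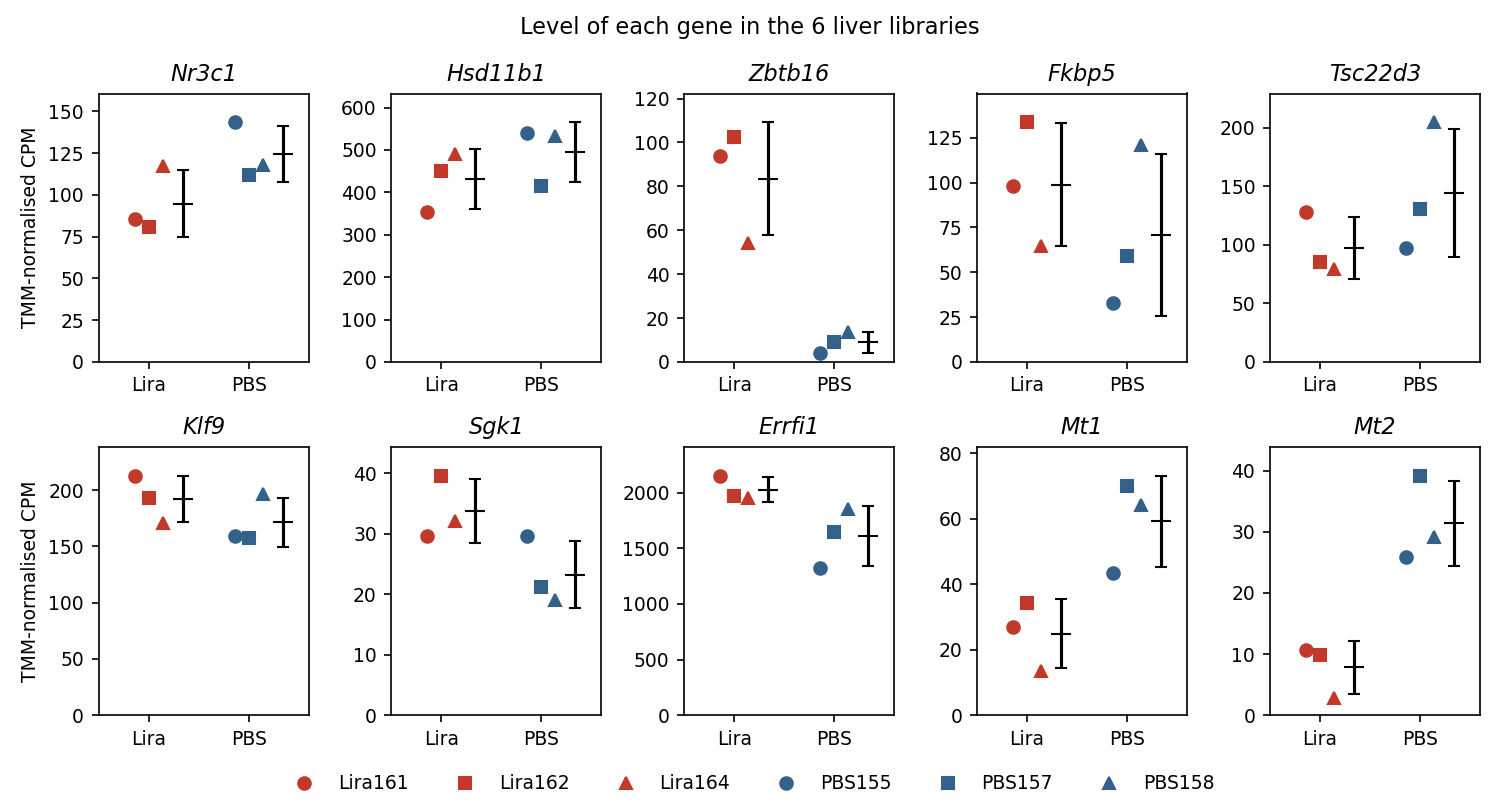
TMM-normalised CPM (linear axes from 0) of the 10 genes in each liraglutide (red) and PBS (blue) library, with the marker shape giving the library and black bars the mean and SD over 3 libraries. Zbtb16 lies between 54.2 and 102 CPM in liraglutide libraries, above all PBS libraries, while Mt1 and Mt2 lie below all PBS libraries.

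Library totals were between 20888991 and 25404192 counts under liraglutide and between 21901811 and 27007182 under PBS. Libraries are named by group and the number in their column heading. The labels do not state that the 3 libraries of a group came from separate mice, so p-values cover only library-to-library spread, and part or all of it may be technical. With 1 library left out, 1496, 462 and 393 genes were called over the whole table (Lira164, then Lira161, then Lira162 omitted), and 962, 653 and 414 (PBS155, then PBS157, then PBS158 omitted), against 1107 with all 6.

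Nr3c1 encodes the glucocorticoid receptor itself. Levels are given as CPM, the usual depth-scaled count, after TMM normalisation. It was at 85.7, 80.7 and 118 CPM in Lira161, Lira162 and Lira164, against 143, 112 and 118 CPM in PBS155, PBS157 and PBS158. The groups overlapped, because Lira164 stood among the PBS libraries while the other liraglutide libraries were below them all. The log2 fold change was -0.39 ± 0.16 (SE; 95% interval -0.75 to -0.03), with an adjusted p of 0.159 in edgeR. Without Lira164 it was -0.59 with an adjusted p of 0.0172, the one setting of 13 in which Nr3c1 was called, with adjusted p up to 0.401 in the others.

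Hsd11b1 encodes 11-beta-hydroxysteroid dehydrogenase type 1, the enzyme that regenerates corticosterone from its inactive form. It was at 355, 449 and 492 CPM in libraries Lira161, Lira162 and Lira164, against 539, 414 and 532 CPM in libraries PBS155, PBS157 and PBS158. The groups overlapped, with Lira161 the lowest of the 6 libraries. The log2 fold change was -0.20 ± 0.15 (95% interval -0.55 to 0.15, adjusted p = 0.463 in edgeR). The closest tested gene on one side, G0s2, an inhibitor of lipolysis that begins 8086 bases away, rose by 1.67 ± 0.29 (adjusted p = 0.0192; not called without Lira161, Lira162 or PBS158, up to 0.0775). Traf3ip3, on the other side, had a log2 fold change of 0.85 at under 1 CPM (adjusted p = 0.205).

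Among genes for the supply and clearance of steroids, the 3 that were called encode steroid-metabolising enzymes, and all were lower. The list of 13 tested genes covered steroid binding, conversion, conjugation and efflux, cytochrome P450 enzymes and the receptor gene Nr3c2. Of them 3 were called lower and 0 higher (median log2 fold change -0.63), against 4.69% lower and 4.08% higher of all tested genes. Of the 13, 2 were above 0. Groups did not overlap for 6 lower and 1 higher, against 16.4% and 14.9% of all tested genes. Hsd3b5 had the lowest log2 fold change of the list and was not called (-2.96 ± 1.48, adjusted p = 0.300 in edgeR). It was at 39.0 ± 55.9 CPM after liraglutide and 304 ± 61.4 CPM after PBS, without overlap. Serpina6 and H6pd, on the supply side, were not called (log2 fold change -1.21 and 0.06, adjusted p = 0.338 and 0.798 in edgeR). Ugt2b1, a glucuronosyltransferase, was at 221 ± 63.6 CPM after liraglutide and 516 ± 35.4 CPM after PBS (SD, n = 3 each; log2 fold change -1.22 ± 0.21, adjusted p = 0.0127 in edgeR). Akr1c6, a hydroxysteroid dehydrogenase, and Akr1d1, the steroid 5-beta-reductase that inactivates glucocorticoids and also serves bile acid synthesis, had log2 fold changes of -0.79 ± 0.18 and -1.93 ± 0.39 (adjusted p = 0.0288 and 0.0388). The count of 3 was 5 without Lira164, 2 without PBS155 and 1 without any other single library. Ugt2b1 was called in all 13 alternative settings. Akr1c6 was not called without PBS158, PBS157, Lira162 or Lira161 (adjusted p at most 0.102), and Akr1d1 kept it in the left-out fits only without Lira164 (otherwise up to 0.162). For the count of 0 higher members, 1 had an unadjusted p below 0.05, and DESeq2 and limma-voom called 0. Hsd11b2, which encodes the enzyme that inactivates the hormone in the kidney, had at most 1 count in any library and was not tested. Akr1c6 and Ugt2b1 have close paralogs whose reads could have been shared, so their values are uncertain.

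Zbtb16 (PLZF) encodes a zinc finger transcription factor with a BTB domain, and its gene is known as a strong glucocorticoid target in several cell types. The gene lies on the minus strand of chromosome 9, from 48654297 to 48836222 (GRCm38). Its level was 93.9, 102 and 54.2 CPM in Lira161, Lira162 and Lira164, against 4.07, 8.99 and 13.7 CPM in PBS155, PBS157 and PBS158. Each liraglutide library was above each PBS library, and the lowest liraglutide value was several times the highest PBS value. The underlying read counts were 1947, 2652 and 1302 after liraglutide and 111, 210 and 286 after PBS, so counting error is small beside the spread between libraries. Means were 83.5 ± 25.7 and 8.93 ± 4.83 CPM (SD, n = 3 each), and the log2 fold change was 3.24 ± 0.50 (95% interval 1.98 to 4.50; adjusted p = 0.0219 in edgeR). That rise ranked 14 of the 12626 tested genes by size and 566 by p.

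The size of the Zbtb16 rise depended little on the settings, while its call did. Over 13 alternative settings the log2 fold change lay between 2.87 and 3.69. The call was lost without Lira161, Lira162 or PBS157, at adjusted p of 0.0620, 0.0827 and 0.0991, and with no filter beyond 1 count (0.0532). It held without Lira164, PBS155 or PBS158 (0.0309, 0.0216 and 0.0384), and DESeq2 gave an adjusted p of 3.11e-07.

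**Figure D2:**
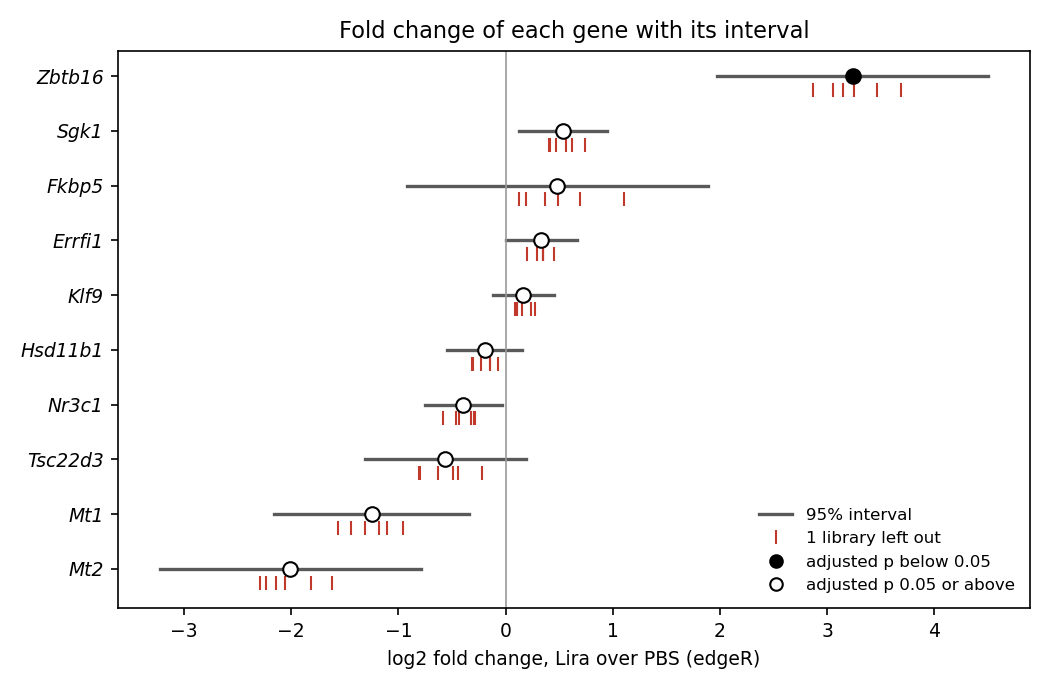
The log2 fold change of each gene (points; liraglutide over PBS, edgeR) with its 95% interval (grey bars) and the 6 values obtained with 1 library left out (red ticks). Zbtb16, at 3.24, is the one filled point, and Mt2 (-2.01) and Mt1 (-1.25) lie farthest to the other side.

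The genes whose levels over the 6 libraries were most like those of Zbtb16 were all higher after liraglutide, as their choice all but fixes. Likeness was the root mean square difference of log2 CPM, centred on each gene's mean, among 9248 genes with a mean of at least 5 CPM. The 5 closest were Gadd45b, a growth arrest and stress gene (0.483), Gdf15, a stress-induced hormone (0.494), Fgf21, a fasting hormone of the liver (0.552), Rad51b, a recombination gene (0.635), and Cntnap1, which encodes a contactin-associated protein (0.637). Gdf15 was at 20.1, 26.3 and 9.62 CPM in Lira161, Lira162 and Lira164, against 1.98, 2.18 and 2.45 CPM in PBS155, PBS157 and PBS158. It shared with Zbtb16 the order of the libraries in both groups. The log2 fold changes of Gadd45b, Gdf15, Fgf21, Rad51b and Cntnap1 were 2.76, 3.09, 3.10, 2.75 and 3.46. Cntnap1 lost its call without Lira161, PBS155 or PBS158 (adjusted p up to 0.0781). Beside Zbtb16 on the chromosome, Nnmt, a nicotinamide methyltransferase gene 49144 bases away, had a log2 fold change of -0.22 ± 0.41 (adjusted p = 0.778, and 0.06 without Lira164). Usp28, 149153 bases away on the other side, had -0.56 ± 0.16 (adjusted p = 0.0689).

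Fkbp5 encodes FKBP51, a co-chaperone of Hsp90 that lowers the affinity of the receptor for hormone and is itself induced by the receptor. It was at 98.1, 134 and 64.8 CPM in Lira161, Lira162 and Lira164, against 32.8, 59.1 and 121 CPM in PBS155, PBS157 and PBS158. The groups overlapped widely: PBS158 exceeded 2 of the 3 liraglutide libraries. Its spread was wide in both groups, with a highest value 2.06 times the lowest after liraglutide and 3.68 times after PBS. The coefficient of variation was 34.8% after liraglutide and 63.7% after PBS, where the medians over all tested genes were 11.3% and 11.4%. The log2 fold change was 0.48 ± 0.55 (95% interval -0.92 to 1.88, adjusted p = 0.637 in edgeR), and 1.11 without PBS158 (adjusted p = 0.234). It was 0.12 without PBS155 and 0.19 without Lira162. Its neighbours Tead3 and Srpk1 had log2 fold changes of -0.03 and -0.07 (adjusted p = 0.904 and 0.762); Tead3 had 0.02 with library totals and 0.03 without PBS157.

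Among chaperones and cofactors of the receptor, 3 of 19 tested genes rose and 0 fell, against 4.08% and 4.69% of all tested genes. The median log2 fold change was 0.07. Hsp90aa1, the stress-inducible cytosolic Hsp90, was at 253 ± 13.2 CPM after liraglutide and 142 ± 26.3 CPM after PBS (log2 fold change 0.84 ± 0.14, adjusted p = 0.0088 in edgeR). Hspa8, the constitutive Hsp70, and Stip1, the adaptor between Hsp70 and Hsp90, rose by 0.62 ± 0.14 and 0.58 ± 0.11 (adjusted p = 0.0260 and 0.0169). The count was 3 without Lira164 or PBS157, 1 without PBS158 and 2 without any other single library. Hsp90aa1 was called in all alternatives, Stip1 in all but the fit without PBS158 (0.0589), and Hspa8 only in those without Lira164 or PBS157 among the left-out fits (otherwise up to 0.101). For the 0 lower genes, 1 had an unadjusted p below 0.05, and DESeq2 and limma-voom each called 1, as did edgeR without Lira164.

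Tsc22d3 encodes GILZ, a leucine zipper protein that carries part of the anti-inflammatory action of glucocorticoids. It was at 128, 85.6 and 79.2 CPM in Lira161, Lira162 and Lira164, against 97.3, 130.4 and 205 CPM in PBS155, PBS157 and PBS158. Lira162 and Lira164 were below all PBS libraries and Lira161 was not. On the log2 scale the fold change was -0.56 ± 0.31 (95% interval -1.31 to 0.19, adjusted p = 0.315 in edgeR) and lay between -0.81 and -0.22 over the alternatives, none of which called it. It was -0.22 without PBS158, the library with the highest level. The neighbouring Prps1 and Mid2 had log2 fold changes of -0.11 and -0.26 (adjusted p = 0.541 and 0.310).

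Klf9 encodes a Krüppel-like zinc finger repressor that responds directly to the receptor and also cycles with the circadian clock. It was at 213, 193 and 171 CPM in Lira161, Lira162 and Lira164, against 159.7, 157.9 and 196 CPM in PBS155, PBS157 and PBS158. The groups overlapped through PBS158. The log2 fold change was 0.17 ± 0.13 with a 95% interval from -0.12 to 0.45 (adjusted p = 0.444 in edgeR), the narrowest of the 10 genes. Smc5, the nearest tested gene, had a log2 fold change of -0.17 (adjusted p = 0.300).

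Relatives of Fkbp5, Tsc22d3, Klf9, Zbtb16 and the metallothioneins moved in both directions. Of 24 tested, 4 rose and 2 fell, against 4.08% and 4.69% of all tested genes, with a median of 0.08. Tsc22d1, which encodes a TGF-beta-stimulated relative of GILZ, fell to 57.4 ± 18.6 CPM after liraglutide, against 233.8 ± 71.4 CPM after PBS (log2 fold change -2.03 ± 0.32, adjusted p = 0.0161 in edgeR). Zbtb44 fell by 0.46 ± 0.09 (adjusted p = 0.0192). Fkbp1a, which encodes the immunophilin FKBP12, rose by 0.69 ± 0.12 and Klf11 by 1.16 ± 0.22 (adjusted p = 0.0120 and 0.0184). Klf3 (0.58) and Klf6 (0.57) made up the 4 that rose and are named after their values were seen. Counts higher and lower were 2 and 0 without Lira161, 0 and 1 without Lira162, 4 and 3 without Lira164, 3 and 2 without PBS155, 3 and 1 without PBS157, and 0 and 3 without PBS158. Tsc22d1 lost its call only without Lira161 (0.0551) and Fkbp1a without Lira162 or PBS158 (up to 0.0513). Klf11 lost it without Lira161, Lira162 or PBS158 (0.0723), Zbtb44 without Lira161, Lira162 or PBS157 (0.0788), Klf3 without Lira161, Lira162, PBS157 or PBS158 (0.0936), and Klf6 without Lira162 or any PBS library (0.122).

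Sgk1 encodes a kinase of ion transport and cell survival that is induced by glucocorticoids and by mineralocorticoids. The only exact palindromic response element found among the promoter windows of these genes lay before one of the 6 RefSeq starts of Sgk1. Windows ran from 250 bases before to 50 bases after each RefSeq start (GRCm38.p6), and 8 of the 10 genes had at least 1 of the 16 windows searched; Zbtb16 and Nr3c1 were not searched. The palindrome, AGAACA and TGTTCT with 3 bases of any kind between them, was present in 1 of them and in 3 of 32851 windows of all genes (0.00913%). Shown for that reason is chr10:21993661-21993755, plus strand, with the palindrome in capitals; its first base is 189 bases before the start.
Sgk1: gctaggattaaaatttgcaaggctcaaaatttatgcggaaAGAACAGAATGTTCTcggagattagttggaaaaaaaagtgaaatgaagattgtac
The half-site AGAACA, searched on both strands and counted also inside the palindrome, was in 4 of the 16 windows, 3 of Sgk1 and 1 of Tsc22d3, and in 19.0% of all windows. A match in these letters does not show binding, and elements farther from the starts were not searched.

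Sgk1 was at 29.6, 39.6 and 32.1 CPM in Lira161, Lira162 and Lira164, against 29.6, 21.1 and 19.0 CPM in PBS155, PBS157 and PBS158. PBS155 matched the lowest liraglutide library, and the other PBS libraries were below all liraglutide libraries. Its log2 fold change was 0.54 ± 0.18 (95% interval 0.13 to 0.95, adjusted p = 0.102 in edgeR). It was 0.74 without PBS155 (adjusted p = 0.0226), and DESeq2 gave 0.53 (0.0481), while the other alternatives gave adjusted p between 0.0922 and 0.289. E030030I06Rik, the nearest tested gene, had a log2 fold change of -0.16 at 1.32 CPM after liraglutide and 1.47 CPM after PBS (adjusted p = 0.761).

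Errfi1 encodes MIG6, a feedback inhibitor of the EGF receptor that is induced by glucocorticoids and by the receptor's own signal. It was at 2156, 1973 and 1955 CPM in Lira161, Lira162 and Lira164, against 1321, 1649 and 1856 CPM in PBS155, PBS157 and PBS158. The groups did not overlap, with PBS158 close below the liraglutide libraries. On the log2 scale the difference was 0.33 ± 0.15 (95% interval 0.01 to 0.66, adjusted p = 0.187 in edgeR), and no alternative called it (adjusted p between 0.0937 and 0.399). Park7, 28241 bases away, had a log2 fold change of -0.05 (adjusted p = 0.844; 0.02 without Lira164 and 0.10 without PBS158).

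Of 19 tested partners of Sgk1 and of the EGF receptor, 2 rose and 0 fell, against 4.08% and 4.69% of all tested genes. The median was 0.03. Nedd4l, the ubiquitin ligase of ion channels that Sgk1 phosphorylates, was at 72.4 ± 18.2 CPM after liraglutide and 34.0 ± 5.59 CPM after PBS (log2 fold change 1.09 ± 0.21, adjusted p = 0.0195 in edgeR). Tgfa, a ligand of the EGF receptor, rose by 0.45 ± 0.10 (adjusted p = 0.0266). The count was 2 without Lira164 or PBS155 and 0 without Lira161, Lira162, PBS157 or PBS158; Tgfa was also not called without PBS155 (adjusted p up to 0.101), and Nedd4l had adjusted p up to 0.0717. For the 0 lower genes, 1 had an unadjusted p below 0.05, DESeq2 and limma-voom called 0, and edgeR without Lira164 called 1. Areg, another ligand, had at most 2 counts in a library and was not tested.

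Mt1 and Mt2 encode metallothioneins, small cysteine-rich proteins that bind zinc and copper. The genes are neighbours on the plus strand of chromosome 8, with Mt2 at 94172664 to 94173568 and Mt1 at 94179082 to 94180327 (GRCm38), 5514 bases apart. Metal response elements, bound by the zinc-sensing factor MTF1, are a known feature of both promoters, so the bases before their RefSeq starts are shown, up to the first annotated exon base. Capitals mark matches to TGCACNC or TGCGCNC on either strand, and both stretches are on the plus strand at chr8:94172368-94172617 and chr8:94178839-94179081.
Mt2: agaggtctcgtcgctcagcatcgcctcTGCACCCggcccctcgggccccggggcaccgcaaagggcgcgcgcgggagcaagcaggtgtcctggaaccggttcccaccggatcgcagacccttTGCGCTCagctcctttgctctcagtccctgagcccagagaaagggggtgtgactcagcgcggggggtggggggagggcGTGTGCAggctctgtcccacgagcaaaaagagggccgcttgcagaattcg
Mt1: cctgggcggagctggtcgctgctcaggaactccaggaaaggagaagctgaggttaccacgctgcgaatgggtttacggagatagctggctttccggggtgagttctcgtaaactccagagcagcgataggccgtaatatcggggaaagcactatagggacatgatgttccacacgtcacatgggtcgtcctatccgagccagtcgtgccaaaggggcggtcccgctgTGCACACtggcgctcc
Counted over the full windows, which include 50 bases after the start, Mt2 had 4 matches and Mt1 had 3. The stretches shown hold 3 and 1 of them, because matches after the start (+5 for Mt2, +3 and +21 for Mt1) are left out. Bases farther after the starts were not searched, and elements there would be missed. The stretches may thus hold only a part of each promoter, and their counts do not compare the promoters of Mt1 and Mt2. At least 3 matches were found in 1.97% of the windows of all genes, and at least 1 in 25.7%. Neither window held the palindrome or a half-site of the glucocorticoid response element.

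Mt1 was at 27.0, 34.2 and 13.4 CPM in Lira161, Lira162 and Lira164, against 43.3, 70.0 and 64.2 CPM in PBS155, PBS157 and PBS158. Mt2 was at 10.7, 9.88 and 2.83 CPM in the same liraglutide libraries, against 25.8, 39.2 and 29.1 CPM in the same PBS libraries. For both genes the groups did not overlap, and Lira164 was the lowest of all 6 libraries. Groups did not overlap for 4 of the 10 genes, these 2 with Zbtb16 and Errfi1, where the share over all tested genes was 31.3%; 2 were higher and 2 lower, against 14.9% and 16.4% of all tested genes. The log2 fold changes were -1.25 ± 0.37 for Mt1 (95% interval -2.16 to -0.34, adjusted p = 0.0995 in edgeR) and -2.01 ± 0.49 for Mt2 (-3.23 to -0.79, adjusted p = 0.0668).

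Whether the metallothionein genes were called depended on Lira164 and on the tool. Without Lira164 the log2 fold changes were -0.96 and -1.62 for Mt1 and Mt2, with adjusted p of 0.0422 and 0.00124. DESeq2 called both (adjusted p = 0.000183 for Mt1 and 0.0055 for Mt2), and limma-voom called Mt2 (0.0410) and not Mt1 (0.0882). In the other alternatives adjusted p lay up to 0.247 for Mt1 and 0.172 for Mt2. Mt2 made up 28.4%, 22.4% and 17.4% of the summed counts of both genes in Lira161, Lira162 and Lira164, against 37.4%, 35.9% and 31.2% in PBS155, PBS157 and PBS158. The groups did not overlap in this share either, and its means of 22.7% ± 5.48 and 34.8% ± 3.22 (SD, n = 3 each) gave p = 0.1 in a two-sided exact permutation test, the smallest p that 3 against 3 libraries allow. The exact binomial (Clopper-Pearson) 95% interval of the share, which covers counting error only, was 13.8% to 21.6% in Lira164 and 29.1% to 33.3% in PBS158. The longest run of identical bases between annotated transcripts of the genes was 20. The antisense transcript Gm45774 overlaps 432 exon bases of Mt2 and has no row in the table, so without a stated strand setting its reads cannot be told apart from those of Mt2.

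**Figure D3:**
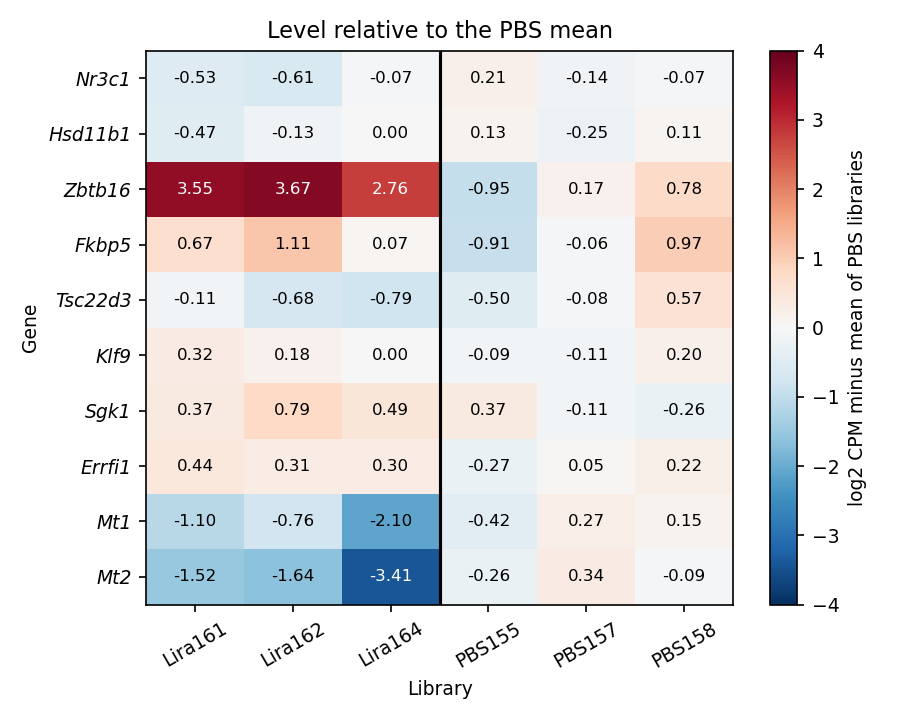
Log2 CPM of each gene (rows) in each library (columns, liraglutide libraries left of the line) minus the mean of the PBS libraries, coloured from -4 (blue) to 4 (red). Lira164 has the smallest Zbtb16 value of the liraglutide libraries, 2.76, and the lowest Mt1 and Mt2 values, -2.10 and -3.41.

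Other genes of metal handling were not called in either direction. Of 18 tested zinc and copper transporters, chaperones and MTF1-related genes, edgeR called 0 higher and 0 lower, against 4.08% and 4.69% of all tested genes. Their median log2 fold change was -0.07. At an unadjusted p below 0.05, 1 of the 18 was higher and 3 were lower, against 12.5% and 13.1% of all tested genes. DESeq2 and limma-voom called 0 of them. Without Lira164, 2 were lower. Groups did not overlap for 4 lower and 0 higher of the 18, against 16.4% and 14.9% of all tested genes. Among these 4 was the zinc transporter gene Slc30a1 (log2 fold change -0.44 ± 0.15, adjusted p = 0.0938 in edgeR). The most abundant of the list, Cp, which encodes the copper protein ceruloplasmin, had a log2 fold change of 0.08 ± 0.12, and Gclc, a subunit of the glutathione-synthesizing enzyme, -0.28 ± 0.11 (adjusted p = 0.684 and 0.147). Metallothioneins also respond to inflammation, and among 18 acute phase genes edgeR called 0 in either direction, with a median of -0.26. At an unadjusted p below 0.05 they numbered 1 higher and 3 lower, against 12.5% and 13.1% of all tested genes. DESeq2 called 1 lower and limma-voom 0, and edgeR called 1 lower without Lira162, 2 lower without Lira164 and 1 higher without PBS157. Hp, the haptoglobin gene, was at 3836 ± 1206 CPM after liraglutide and 3774 ± 399.7 CPM after PBS (log2 fold change 0.02 ± 0.21, adjusted p = 0.959; -0.27 without Lira161 and -0.08 without PBS155). Fgb, a fibrinogen chain gene, had -0.31 ± 0.13 (adjusted p = 0.156). Of the 18 acute phase genes, 6 were above 0, against 6514 of all 12626 tested genes. Groups did not overlap for 3 lower and 0 higher of them, against 16.4% and 14.9% of all tested genes. Saa1, Saa2 and Saa4 had log2 fold changes of -1.25 ± 1.27, -1.52 ± 1.05 and -0.90 ± 0.26, and Saa3 had 0.76 ± 0.59. Orm1 and Orm2 had -1.16 ± 0.99 and -0.97 ± 1.06. With such wide spread, 0 calls do not show an unchanged list. A part of inflammation in the lower Mt1 and Mt2 levels was not tested. Mt3 and Mt4, the other metallothionein genes of the cluster, had at most 1 and 0 counts in a library. The nearest tested genes outside the cluster, Nup93 and Bbs2, had log2 fold changes of 0.05 and -0.17 (adjusted p = 0.918 and 0.683), with -0.15 for Nup93 without Lira162 and -0.05 without PBS155.

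Beyond the 10 genes, other genes known to respond to glucocorticoids moved unevenly. Their lists were chosen with earlier results of these data known, so their counts and medians are description only. Of 25 regulatory targets, 3 rose and 1 fell, against 4.08% and 4.69% of all tested genes. Their median log2 fold change was 0.27, and 20 of 25 were above 0, as were 6514 of all 12626 tested genes. Pdk4, a kinase that restrains pyruvate oxidation, was at 30.1 ± 13.8 CPM after liraglutide and 5.06 ± 0.82 CPM after PBS (log2 fold change 2.57 ± 0.34, adjusted p = 0.00908 in edgeR), and it was called in all alternatives. Gadd45b, also among the genes closest to Zbtb16, rose by 2.76 ± 0.60 (adjusted p = 0.0467). Mertk, a receptor kinase for the uptake of dying cells, rose by 0.49 ± 0.12, and Cited2, a transcriptional coregulator, fell by 0.87 ± 0.17 (adjusted p = 0.0364 and 0.0169). The 3 higher became 4 without Lira164 or PBS155, 2 without PBS158 and 1 without any other single library, and DESeq2 called 7. Cited2 lost its call without Lira161 or PBS158 (up to 0.0554), Mertk without Lira161, Lira162, PBS157 or PBS158 (0.124), and Gadd45b kept it in the left-out fits only without PBS158 (otherwise up to 0.157); 2 were lower without Lira164. The immediate targets Per1 and Dusp1, named after their values were seen, had log2 fold changes of -0.12 ± 0.14 and 1.25 ± 0.37 (adjusted p = 0.631 and 0.0971), with 0.06 for Per1 without PBS158. Dusp1, a phosphatase gene of MAP kinases, was called by DESeq2 and without PBS155.

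Of 19 metabolic targets, 3 rose and 2 fell, against 4.08% and 4.69% of all tested genes, with a median of 0.52. Fgf21 rose by 3.10 ± 0.27 and the apolipoprotein gene Apoa4 by 3.47 ± 0.68 (adjusted p = 0.00309 and 0.0387 in edgeR), and Igfbp1, named after its values were seen, by 2.70 ± 0.54 (0.0420). Gls2 and Hal, which break down glutamine and histidine, fell by 1.01 ± 0.12 and 0.79 ± 0.15 (adjusted p = 0.0039 and 0.0142). Fgf21 and Gls2 were called in all alternatives. Without Lira164 the list had 7 higher genes, and 1 without any other single library or without the filter. Apoa4 and Igfbp1 kept their calls in the left-out fits only without Lira164 (otherwise up to 0.144 and 0.132), and Hal lost its call without Lira162 or PBS158 (0.0549), where the count of lower genes was 1. Tat and Tdo2, textbook hepatic targets that break down tyrosine and tryptophan and also named after their values were seen, had 2214 ± 809 and 1924 ± 305 CPM after liraglutide, against 1519 ± 187 and 1988 ± 267 CPM after PBS. Their log2 fold changes were 0.54 ± 0.27 (adjusted p = 0.249; called without Lira164) and -0.05 ± 0.16 (adjusted p = 0.880; 0.06 without Lira164 or PBS158).

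**Figure D4:**
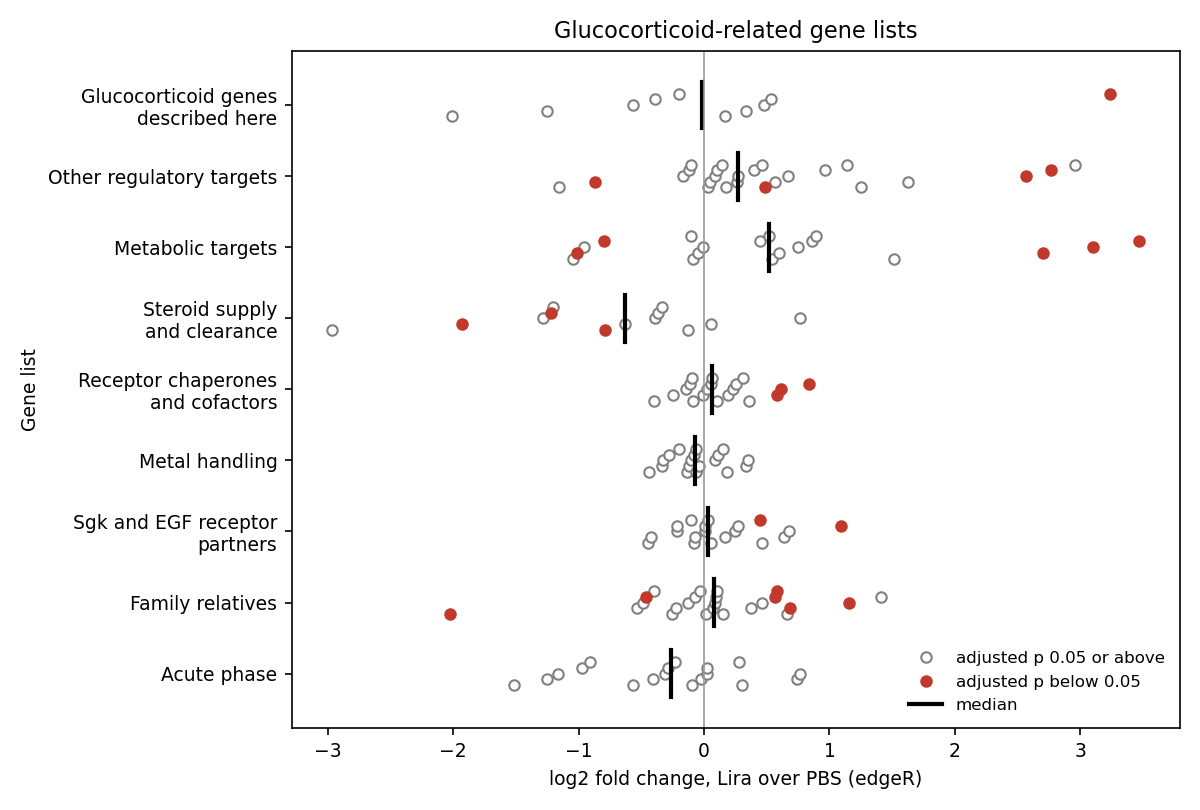
Log2 fold change (liraglutide over PBS, edgeR) of every tested gene in the 10-gene set (top) and in 8 related lists, with called genes in red, other genes open and the median of each list as a black bar. Called genes lie on both sides of 0 in 3 of the 8 lists, and metal handling and acute phase lists hold no called gene.

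Within each group the libraries differed in the same direction for several of the 10 genes. Lira164 was the lowest liraglutide library for 7 of them (Zbtb16, Fkbp5, Tsc22d3, Klf9, Errfi1, Mt1 and Mt2), while it was the lowest for 37.2% of all tested genes. PBS155 was the lowest PBS library for 6 of the 10 and for 37.6% of all tested genes, and PBS158 the highest for 5 of the 10 and for 33.6%. Zbtb16 and Fkbp5 ranked the libraries identically, Lira162 over Lira161 over Lira164 and PBS158 over PBS157 over PBS155. The closest pair by the root mean square difference of centred log2 CPM was Klf9 with Errfi1 (0.143), followed by Nr3c1 with Hsd11b1 (0.197), as a description of these 6 libraries. The labels give no time of day for the taking of the livers.

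Per length, in CPM per kb of merged exons of GENCODE M21, Errfi1 had the highest level of the 10 in both groups, at 566 ± 31.0 after liraglutide and 449 ± 75.3 after PBS, followed by Hsd11b1 at 102 ± 16.5 and 116 ± 16.6. After PBS, Mt2 (53.3 ± 11.8) and Mt1 (47.5 ± 11.3) ranked 3 and 4, followed by Klf9 (35.6 ± 4.52), Tsc22d3 (33.2 ± 12.7), Nr3c1 (16.2 ± 2.19), Fkbp5 (7.49 ± 4.77), Sgk1 (4.74 ± 1.14) and Zbtb16 (1.69 ± 0.914). After liraglutide Klf9 (39.9 ± 4.32) ranked 3, before Tsc22d3 (22.5 ± 6.06), Mt1 (19.97 ± 8.49), Zbtb16 (15.8 ± 4.86), Mt2 (13.3 ± 7.36), Nr3c1 (12.3 ± 2.60), Fkbp5 (10.4 ± 3.64) and Sgk1 (6.88 ± 1.07). Zbtb16 thus ranked 6 after liraglutide and 10 after PBS. From Tsc22d3 to Sgk1 after liraglutide, the ranges of 1 SD around neighbouring means overlapped, so that order is not settled. After PBS they overlapped from Mt2 to Tsc22d3 and between Fkbp5 and Sgk1. Which annotation the authors counted on is not given in the sources used. Merged exons cover all annotated transcripts of a gene, so a level per kb is a low estimate where the main transcript is shorter. This holds for Mt1, whose merged exons cover the whole gene, and was not checked for the other genes. The ranks by level per kb are therefore approximate.

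**Figure D5:**
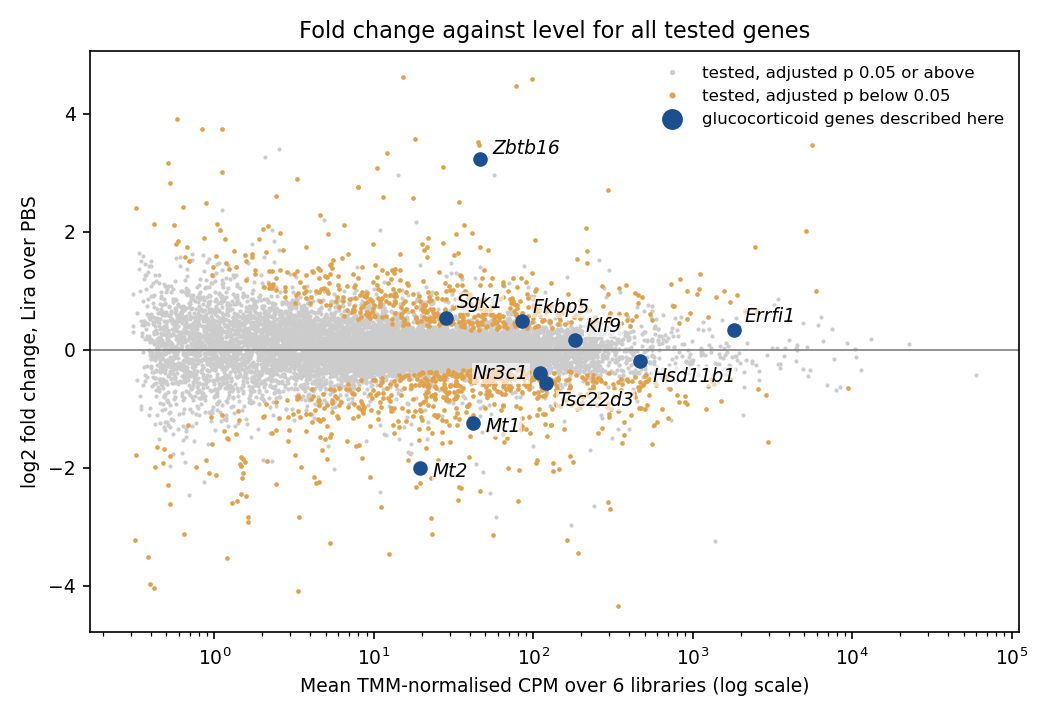
Log2 fold change (liraglutide over PBS) against mean CPM over the 6 libraries (log scale) for the 12626 tested genes, grey where not called and orange where called, with the 10 glucocorticoid-related genes in blue. Zbtb16 stands above the bulk of genes of its level, Mt1 and Mt2 below it, and the other 7 lie between -0.56 (Tsc22d3) and 0.54 (Sgk1).

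The samples carried hepatocyte markers, with Alb at 51368 CPM after liraglutide and 68786 CPM after PBS, and Cps1 at 4414 and 2428 CPM. The hepatocyte marker Ass1 had at most 4 counts in a library. How reads were counted is not given, so this does not show that Ass1 RNA was absent. A loss of its reads in mapping or counting was not tested. Summed hepatocyte markers ranged from 81094 to 97802 CPM after liraglutide and from 91842 to 112299 CPM after PBS, with Alb the largest part. Of 8 tested, 4 were above 0 in log2 fold change, as were 6514 of all 12626 tested genes. EdgeR called Hnf4a higher (0.53 ± 0.13, adjusted p = 0.0338) and Fah lower (-0.43 ± 0.11, adjusted p = 0.0451), and DESeq2 called 2 higher and 1 lower. Several of the 10 genes are also expressed outside hepatocytes, and markers of other liver cells differed between libraries. Summed markers of sinusoidal endothelium ranged from 268 to 409 CPM after liraglutide and from 151 to 287 CPM after PBS, with all 10 above 0 in log2 fold change. Of these, edgeR and limma-voom each called 1 higher (Clec4g in edgeR), DESeq2 called 4 higher, and 5 were higher at an unadjusted p below 0.05. Of all tested genes, edgeR called 4.08% higher and 4.69% lower, and limma-voom called 8.85% in either direction. At an unadjusted p below 0.05 in edgeR, 12.5% of all tested genes were higher and 13.1% lower. DESeq2 called 12.2% of all genes with an adjusted p, in either direction. Stellate cell markers ranged from 497 to 555 CPM after liraglutide and 297 to 468 CPM after PBS, with 8 of 10 above 0. Of the 10, edgeR called 0, 2 were higher at an unadjusted p below 0.05, DESeq2 called 2 higher and limma-voom 1. Kupffer cell and macrophage markers ranged from 242 to 389 CPM after liraglutide and 110.1 to 405 CPM after PBS, with 8 of 9 above 0. Of the 9, edgeR, DESeq2 and limma-voom called 0, and 0 had an unadjusted p below 0.05. Cholangiocyte markers summed to between 26.5 and 28.6 CPM after liraglutide and 41.9 and 50.8 CPM after PBS, with Spp1 called lower among 5 tested. Spp1 was the largest part of that sum, at 20.5 ± 1.17 CPM after liraglutide and 36.3 ± 4.01 CPM after PBS. Sox9 was lower without overlap (adjusted p = 0.148 in edgeR), and Epcam, Krt7 and Krt19 overlapped (0.565, 0.586 and 0.620). Lymphocyte markers (T, B and natural killer cells) stayed at or below 4.59 CPM and neutrophil markers at or below 2.86 CPM in sum. Of 6 tested lymphocyte markers 5 were above 0, and edgeR, DESeq2 and limma-voom called 0. At an unadjusted p below 0.05, 2 were higher, Klrb1c and Nkg7 (log2 fold change 1.59 ± 0.57 and 1.27 ± 0.49). Their groups did not overlap, at under 1 CPM. The untested Cd3e had 10, 14 and 8 counts in Lira161, Lira162 and Lira164, against 5, 2 and 1 in PBS155, PBS157 and PBS158. Of the 6 adipocyte markers, Adipoq had at most 3 counts in a library, Plin1 and Lep at most 1 and Retn 0. The other 2, Car3 and Cfd, were lower after liraglutide without overlap between the groups. Car3, which hepatocytes also express, averaged 263 ± 310.5 CPM after liraglutide and 2478 ± 1045 CPM after PBS (log2 fold change -3.23 ± 1.05, adjusted p = 0.137 in edgeR), and Cfd averaged 0.210 ± 0.179 CPM after liraglutide and 1.18 ± 0.765 CPM after PBS (-2.47 ± 0.67, adjusted p = 0.0544). With them the adipocyte list summed to between 69.6 and 622 CPM after liraglutide and 1308 and 3316 CPM after PBS. By edgeR and limma-voom 0 of the 2 were called, 2 were lower at an unadjusted p below 0.05, and DESeq2 called 2 lower. The part of these cells in the values of the 10 genes was not tested.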

How the data were processed

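Liver RNA was sequenced in 3 liraglutide and 3 PBS libraries. The authors deposited a table of unnormalised integer counts for 23412 gene symbols. STAR and mm10 were used, per the submitters' processing notes; how reads were counted (tool, annotation, strand) is not given in the sources used; paralogs and overlapping genes may share counts. Columns were assigned to groups by name, and 0 sample columns were unused. Replicate pairs differed beyond sampling noise (chi-square per degree of freedom between 31.0 and 61.3).

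Of 16949 genes with at least 1 count, filterByExpr kept 12626, fitted with edgeR 4.0.16 in R 4.3.3 (TMM, estimateDisp, robust glmQLFit, glmQLFTest, group as the only term; two-sided p-values, Benjamini-Hochberg threshold 0.05; common biological coefficient of variation 0.157). The SE is the log2 fold change over the square root of F, and intervals are 95%. Log2 CPM used a prior count of 2. Alternatives used DESeq2 1.42.0, limma 3.58.1, other scalings and filters, and each library left out. The scripts were tested on simulated data.

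The genes and lists were chosen with earlier results of these data known. All 10 genes were described, with up to 4 called genes of smallest p per list (or the 2 most abundant where none was called), the 5 genes most like Zbtb16, the nearest tested gene on either side within 200 kb (13 genes besides Mt1 and Mt2, 1 of them called), and genes overlapping exons. Positions and exons are from GENCODE M21 (GRCm38), where 21737 symbols matched 1 gene. Promoter sequences are from RefSeq (GRCm38.p6); they were matched by symbol for 8 of the 10 genes, and 32851 windows of 27025 genes were the background.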

Additional observations from a re-analysis of the deposited data

How the results depend on the processing

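No paired analysis was possible because the column numbers match no triplicate number of the labels. With 1 library left out, the fit has 2 libraries in one group and 3 in the other. Over these fits, all changed genes numbered 393 to 1496, or 3.09% to 11.7% of the genes tested. Higher genes made up 41.2% to 50.5% of those called. Of the 10 genes, 0 to 2 were higher and 0 to 3 lower. Regulatory targets were higher in 1 to 4 and lower in 0 to 2 cases, metabolic targets in 1 to 7 and 1 to 2, family relatives in 0 to 4 and 0 to 3, chaperones in 1 to 3 and 0 to 1, kinase and EGF receptor partners in 0 to 2 and 0 to 1, and acute phase genes in 0 to 1 and 0 to 2. Steroid genes were lower in 1 to 5 and metal genes in 0 to 2. With no filter beyond 1 count, 0 of the 10 genes and 1 metabolic target were higher. DESeq2 called 2 higher and 2 lower of the 10, and 7 regulatory and 5 metabolic targets higher, 1 chaperone and 1 acute phase gene lower. Limma-voom called 1 of the 10 and 1 chaperone lower. The cause was not tested. Of the 10 genes, none changed direction in any of the 13 alternatives run. Among the other named genes, with differences near 0, direction turned for Hp with limma-voom (-0.0124), and for Tdo2 (0.00194) and Tead3 (0.024) with library totals. Over the left-out fits Hp ranged from -0.27 to 0.14, Per1 from -0.24 to 0.060, Tdo2 from -0.16 to 0.059, Nnmt from -0.72 to 0.063, Nup93 from -0.15 to 0.19, Park7 from -0.17 to 0.096 and Tead3 from -0.092 to 0.034. Bbs2, E030030I06Rik and Traf3ip3 gave no value with the filter at a mean of 5 CPM.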
